A study of Mus musculus with 16 samples.

Results

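Follicle and lymphoid tissue organizer genes were examined in the pancreas of 16 mice with chronic pancreatitis. They encode the cytokine, chemokines, receptors and vascular addressins that build B cell follicles and bring lymphocytes into them. The names searched were Cr2, Glycam1, Cxcl13, Ccl19, Ccl21a, Ltb, Cxcr5, Ccr7, Madcam1 and Fdcsp. Of these 10 genes, 7 were among the 15156 genes of the deposited table, and Ccl19, Ccl21a and Fdcsp were not analysed here. The genes were chosen by their normalized counts, which stood out in some of these libraries, so their levels are given as a description.

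The 4 groups held 4 animals each. DC mice were Daxx fl/fl, MC mice were Men1 fl/fl and DMC mice were both, and all 3 groups carried the Pdx1-Cre transgene. The animals set against them were wild type (WT), and their label names no Cre or floxed allele. Pdx1-Cre is active in the pancreatic epithelium, whereas the genes described here are mainly those of lymphocytes, stroma and blood vessels. All 16 animals, WT included, were 6 to 10 weeks old and received caerulein, a peptide that drives acinar cells to secrete until they are injured, at 50 ug/kg per dose. They were given 4 hourly intraperitoneal doses on 3 days a week for 3 weeks, and tissue was taken 5 days after the last one. Pancreas without caerulein was not analysed here. Libraries are called by genotype and replicate number, as in WT-3, and values are read counts divided by a size factor for each library (normalized counts).

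In a lymph node, lymphocytes carrying the lymphotoxin alpha-beta complex signal to stromal cells through the lymphotoxin beta receptor, and the stroma answers with chemokines that sort arriving cells. CXCL13 draws B cells and follicular helper T cells that carry CXCR5 into follicles, while CCL19 and CCL21 draw cells that carry CCR7 into the T cell zone. High endothelial venules, the vessels through which lymphocytes enter, display sugar-bearing addressins. In chronically inflamed organs the same programme can build tertiary lymphoid structures, and the pancreas also lies against lymph nodes. Follicles inside the tissue and lymph node collected with it cannot be told apart in RNA from the whole organ, nor can fewer cells of a type and less RNA per cell.

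Lymphotoxin signals reach stromal and vascular genes of this programme through NF-kB factors, so the start regions of 2 of them are shown. RefSeq start regions on GRCm38.p6 were found for 5 of the 7 genes. The 250 bases before the annotated start are printed 5′ to 3′ on the gene's own strand, in lower case, for Cxcl13 (chr5:95956689-95956938, plus strand) and Madcam1 (chr10:79664309-79664558, plus strand), with the matched kB-type letters in capitals.
Cxcl13: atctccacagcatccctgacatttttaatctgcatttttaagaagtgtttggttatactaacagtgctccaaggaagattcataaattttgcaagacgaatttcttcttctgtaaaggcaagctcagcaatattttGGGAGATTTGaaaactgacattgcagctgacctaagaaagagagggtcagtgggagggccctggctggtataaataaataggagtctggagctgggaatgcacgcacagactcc
Madcam1: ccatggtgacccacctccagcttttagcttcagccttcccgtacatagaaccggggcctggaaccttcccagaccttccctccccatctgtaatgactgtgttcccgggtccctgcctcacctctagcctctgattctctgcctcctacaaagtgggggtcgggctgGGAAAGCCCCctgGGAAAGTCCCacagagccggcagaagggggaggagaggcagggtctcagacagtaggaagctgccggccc
The capitals in the Cxcl13 window spell GGGAGATTTG on the gene's own strand, from 114 to 105 bases before the start. They match the kB consensus of the noncanonical RelB and p52 factors, known from mouse Cxcl13 itself. The Madcam1 window holds 2 matches to the canonical kB consensus, both on the opposite strand. They read GGGGCTTTCC, from 83 to 74 bases before the start, and GGGACTTTCC, from 70 to 61 bases before it. GGGACTTTCC was also found on the opposite strand of the Ltb window, from 87 to 78 bases before the start, and the Cr2 and Glycam1 windows held no match. Both strands were searched for both consensus patterns, which can overlap and were chosen after the windows had been seen. Of 32851 RefSeq windows of the same length, 1.22% held the noncanonical pattern and 7.25% the canonical one. A match is a string of letters and says nothing of binding.

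The 7 genes were spread over different chromosomes and did not share a locus. On GRCm38 in the GENCODE annotation, Ltb lies at chr17:35194439-35196320 (plus strand), Cxcl13 at chr5:95956951-95961068 (plus), Madcam1 at chr10:79664559-79668537 (plus), Cr2 at chr1:195136811-195176716 (minus), Glycam1 at chr15:103562759-103565081 (minus), Ccr7 at chr11:99144196-99155077 (minus) and Cxcr5 at chr9:44511787-44561877 (minus). All 7 are protein-coding. Exons of Cxcr5 overlap Bcl9l on the opposite strand. The libraries kept strand, but the strand setting of the counting is not given, so part of the Cxcr5 count may be Bcl9l reads. The microRNA gene Mir6973a lies inside Ltb on the same strand without overlapping an exon.

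Whole libraries held 13481063 to 23728309 reads. Acinar marker genes were the most abundant of the cell type lists in every library, with a mean log2 level of 16.3 to 18.1 over 12 genes, as pancreas should have. Men1 stood at 116 to 147 normalized counts in MC and 157 to 178 in DMC, against 331 to 459 in WT (limma adjusted p = 6.16e-05 and 0.000713), and Daxx passed no comparison with WT (limma adjusted p = 0.683 in DC and 0.193 in DMC). The counts of 2 libraries of the same group always differed by more than sampling noise. A count of 0 allows up to 3 reads, equal to 1.84 to 5.30 normalized counts across the libraries, with counting error alone considered.

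These genes were high together in a few animals of different genotypes. They were chosen for standing out in some libraries, so this pattern follows from that choice. The group median of each of the 7 genes was highest in WT. Each gene was set against its own median over the 16 libraries, and a library was marked where at least 4 of the 7 genes reached 4 times that median (on count + 1). That marked DMC-2 and WT-2 with 5 genes each and WT-3 with 6. Just outside the rule lay DC-3 with 3 genes, and MC-3, DMC-1 and WT-4 with 2 genes each, while the other 9 libraries had none. At 2 times the median DC-3 and MC-3 joined the marked libraries, making 5, and at 8 times the median WT-3 alone was left. The marks come from the values of the genes themselves and served for description only. No test used them as a group, but a later fit, chosen after the data were seen, left out the marked WT libraries, WT-2 and WT-3.

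**Figure D1:**
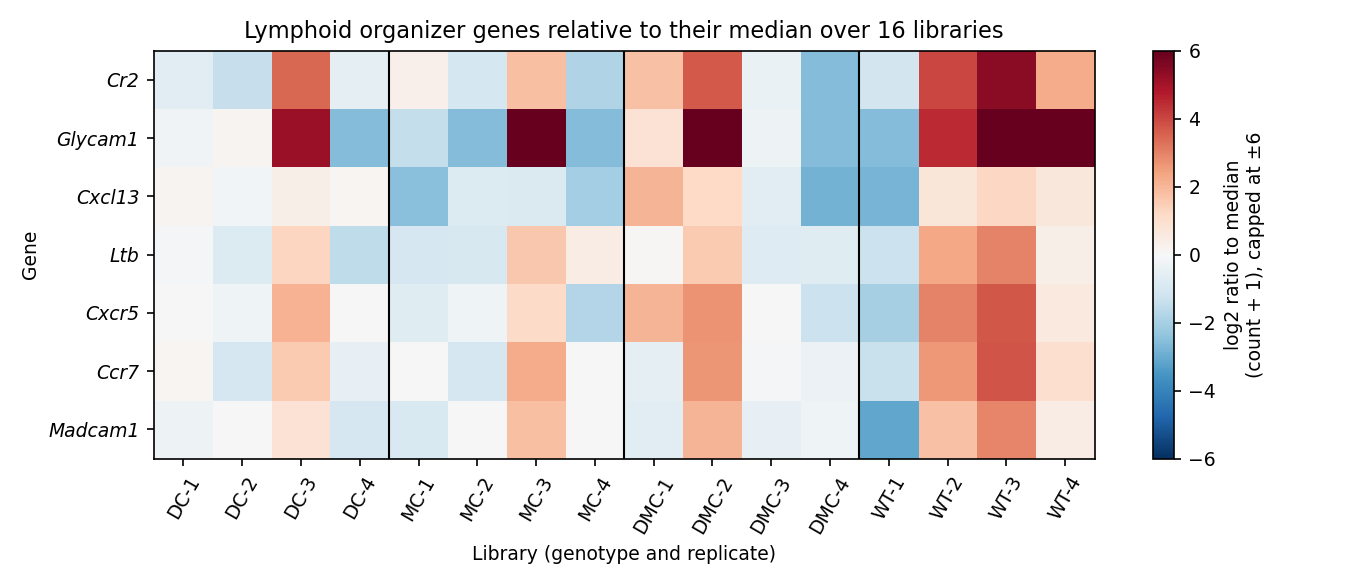
Level of each of the 7 genes in each library, as the log2 ratio of the normalized count + 1 to the gene's median over 16 libraries, with colours capped at ±6 and lines between genotypes. DC-3, MC-3, DMC-2, WT-2 and WT-3 are red for all or nearly all genes, and every genotype holds at least 1 such library beside pale or blue ones.

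Ranking the libraries gene by gene gave the same picture. DMC-2 and WT-3 were among the 5 highest libraries for 7 of the 7 genes, DC-3 and WT-2 for 6, MC-3 for 4, WT-4 for 3 and DMC-1 for 2. The other 9 libraries were in the top 5 for none. WT-3 was the highest library for 6 genes, and the exception was Cxcl13, whose highest library was DMC-1. WT-1 stood at the other end, with the lowest count of all 16 for Cxcr5, Ccr7 and Madcam1, so the WT group held both the highest and the lowest library.

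Ltb encodes lymphotoxin beta, the membrane anchor of the lymphotoxin complex made by B cells, T cells and lymphoid tissue inducer cells. It had 50.2, 29.0, 132 and 17.6 normalized counts in DC, 25.7, 27.0, 167 and 71.8 in MC, and 55.6, 157, 30.0 and 32.0 in DMC, against 21.2, 268, 429 and 68.1 in WT. Libraries DC-3, MC-3, DMC-2, WT-2 and WT-3 were above 130, all other libraries were below 72, and the 4 groups overlapped. The means were 57.3 ± 51.7 in DC, 72.8 ± 66.2 in MC and 68.6 ± 60.02 in DMC, against 197 ± 188 in WT (SD, n = 4 each).

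Cxcl13 encodes the B cell chemokine of follicular stroma. Its counts were 199, 159, 227 and 194 in DC, 30.6, 98.4, 95.01 and 42.8 in MC, and 731, 406, 114 and 23.8 in DMC, against 24.8, 296, 414 and 279 in WT. DC was the only group with a narrow range, MC lay below all DC libraries, and DMC and WT each spanned from their group's lowest to over 10 times that level. The means were 195 ± 27.7 in DC, 66.7 ± 35.0 in MC and 319 ± 320 in DMC, against 253 ± 164 in WT (SD, n = 4 each). Cxcl13 was thus the 1 gene of the 7 whose highest mean was not in WT. That depends on the summary and on DMC-1, with 731. The highest median was in WT, at 287 against 260 in DMC. On the log2 scale the highest mean was in DC, at 7.60 against 7.43 in WT and 7.41 in DMC.

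Cxcr5 encodes the receptor that takes B cells and follicular helper T cells to CXCL13. It had 17.1, 14.1, 76.3 and 16.5 normalized counts in DC, 9.80, 14.3, 38.4 and 4.35 in MC, and 73.8, 116, 16.98 and 6.40 in DMC, against 3.54, 140, 237 and 26.4 in WT. DC-3, MC-3, DMC-1, DMC-2, WT-2 and WT-3 were the 6 highest libraries, and each group also held a library at 17.1 or lower. Group means were 31.0 ± 30.2 in DC, 16.7 ± 15.02 in MC and 53.2 ± 51.1 in DMC, against 102 ± 108 in WT (SD, n = 4 each).

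Ccr7 encodes the receptor that takes naive T cells and mature dendritic cells to CCL19 and CCL21. Its counts were 34.9, 15.8, 99.1 and 23.1 in DC, 31.9, 15.9, 156 and 33.4 in MC, and 21.9, 207, 30.0 and 25.6 in DMC, against 12.4, 204, 459 and 67.0 in WT. DC-3, MC-3 and DMC-2 were each the single high library of their group, whereas 3 of 4 WT libraries lay above the remaining 9 libraries of the Cre groups. The means were 43.2 ± 38.1 in DC, 59.2 ± 64.8 in MC and 71.1 ± 90.7 in DMC, against 186 ± 199 in WT (SD, n = 4 each).

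**Figure D2:**
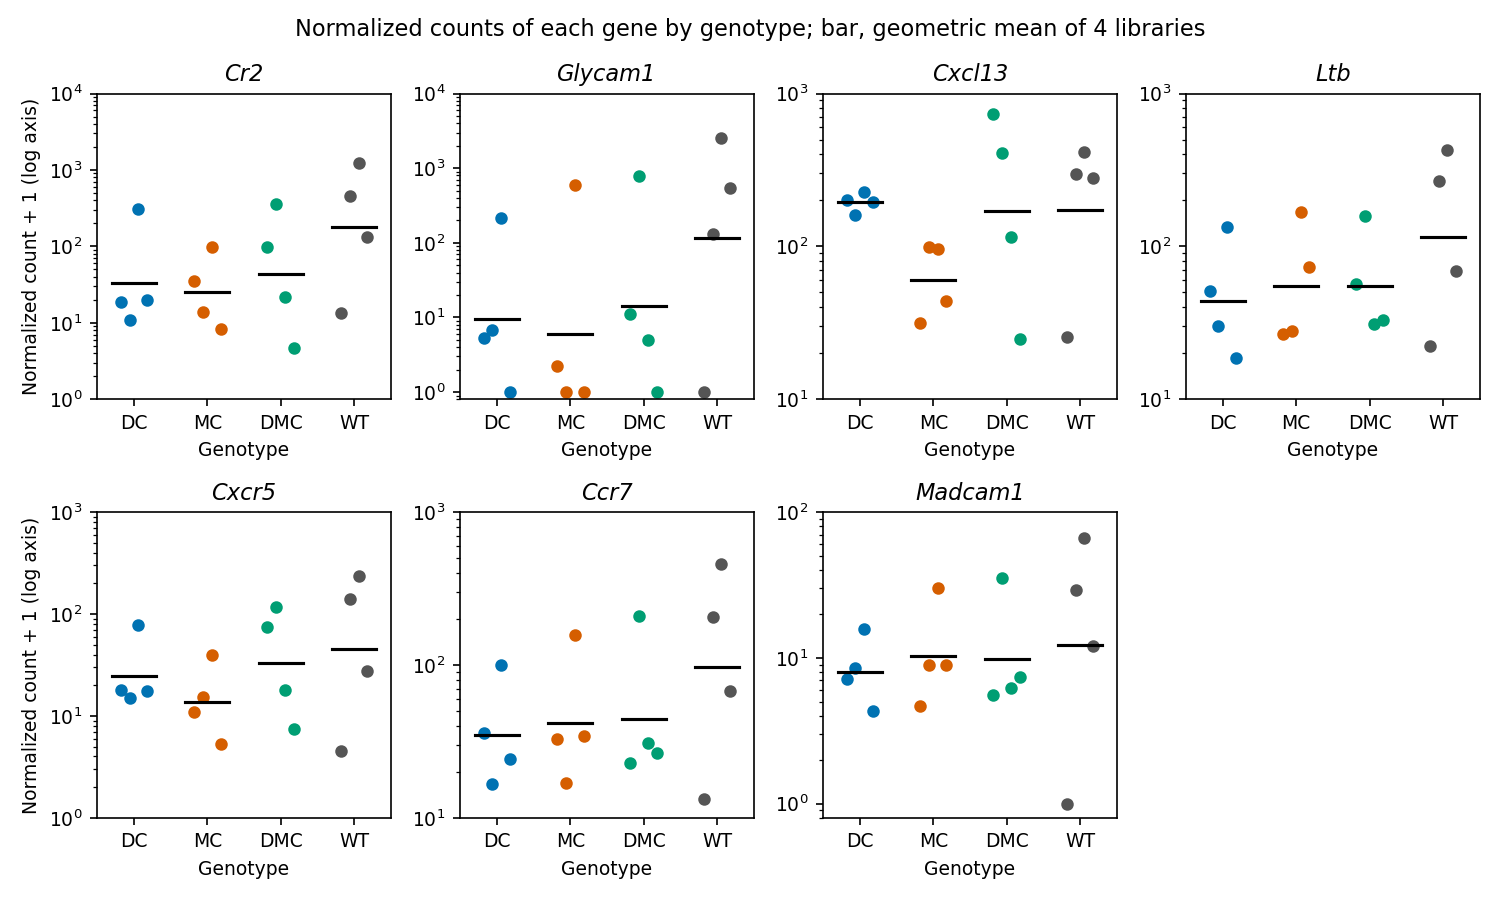
Normalized count + 1 of each gene by genotype on log axes, 1 point per library in replicate order and a bar at the geometric mean of 4 libraries. In DC, MC and DMC 1 or 2 points usually stand far above the rest, while WT-1 lies in the lower part of every panel.

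Glycam1 encodes a mucin-like addressin that mouse high endothelial venules present to L-selectin, and it had the widest range of the 7. It had 4.28, 5.81, 215 and 0 normalized counts in DC, 1.23, 0, 593 and 0 in MC, and 10.02, 796, 3.92 and 0 in DMC, against 0, 132, 2547 and 548 in WT. DC-3, MC-3, DMC-2, WT-2, WT-3 and WT-4 were above 130, the other 10 libraries were at 10.02 or lower, and no library lay between. In reads these 6 libraries held 189 in DC-3, 587 in MC-3 and 1176 in DMC-2, against 146, 3122 and 499 in WT-2, WT-3 and WT-4. The 5 libraries with 0 reads were DC-4, MC-2, MC-4, DMC-4 and WT-1, at least 1 in each genotype. Means were 56.4 ± 106 in DC, 149 ± 296 in MC and 202 ± 396 in DMC, against 807 ± 1184 in WT (SD, n = 4 each), with an SD above the mean in all 4 groups.

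Madcam1 encodes the addressin that binds the alpha4 beta7 integrin, found on venules of gut-associated lymphoid tissue and on follicular stroma. It was the least abundant of the 7, with 80 reads at most in a library. Its counts were 6.12, 7.47, 14.8 and 3.30 in DC, 3.68, 7.94, 29.3 and 7.98 in MC, and 4.55, 34.5, 5.23 and 6.40 in DMC, against 0, 28.0, 65.3 and 10.98 in WT. DC-3, MC-3, DMC-2, WT-2 and WT-3 were the 5 highest libraries, the same as for Ltb, and the other 11 were at 10.98 or lower. The means were 7.93 ± 4.91 in DC, 12.2 ± 11.6 in MC and 12.7 ± 14.6 in DMC, against 26.1 ± 28.6 in WT (SD, n = 4 each).

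Cr2 encodes complement receptor CD21, carried by mature B cells and by follicular dendritic cells. It had 17.8, 9.96, 309 and 18.7 normalized counts in DC, 34.3, 12.7, 98.0 and 7.25 in MC, and 96.5, 362, 20.9 and 3.66 in DMC, against 12.4, 453, 1234 and 132 in WT. DC-3, DMC-2, WT-2 and WT-3 were above 300, MC-3, DMC-1 and WT-4 lay between 96.5 and 132, and the other 9 libraries were at 34.3 or lower. Group means were 88.8 ± 147 in DC, 38.1 ± 41.6 in MC and 121 ± 166 in DMC, against 458 ± 550 in WT (SD, n = 4 each).

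The spread between animals of the same genotype was among the largest in the whole table. On the log2 scale the pooled within-genotype SD of Glycam1 was 4.22, and 4 of the 14220 genes tested had a larger one. Cr2 followed with 2.37, which 14 genes exceeded, and Cxcr5 with 1.78, which 71 exceeded. Madcam1 and Ccr7 both came to 1.60, Cxcl13 to 1.49 and Ltb to 1.42, and 1.54% of genes were above Ltb. The 95th percentile of all genes was 1.02, below each of the 7. The genes were chosen because their counts stood out in some libraries, so these ranks follow from that choice and are a description.

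Comparisons between genotypes were made in a limma fit over all 16 libraries and 14220 genes, on log2(normalized count + 1). All 7 genes passed the filter on low counts. In DC against WT the numbers past an adjusted p of 0.05 were 0 of the 7 genes and 0.0211% of all genes, and in MC against WT 0 of 7 and 0.781%. In DMC against WT they were 0 of 7 and 0.788%. Between the Cre groups the counts were 0 of 7 in DMC against MC (0.00703% of all genes), 0 of 7 in DMC against DC (0.534%) and 0 of 7 in MC against DC (1.37%). No gene of the 7 had an unadjusted limma p under 0.05 in any of the 6 comparisons, a count of 0. With edgeR on the recovered reads 2 genes did in DC against WT (Ccr7 and Ltb), 3 in MC against WT (Cr2, Cxcl13 and Cxcr5) and 1 in DMC against MC (Cxcl13). DESeq2 gave the same 2, 3 and 1 genes, and under both tools 0 of 7 passed after adjustment.

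The fitted differences from WT were large, but their intervals were larger. Cr2 differed by -2.41 in DC (95% interval -5.53 to 0.72), by -2.82 in MC (-5.95 to 0.30) and by -2.03 in DMC (-5.15 to 1.10) on the log2 scale. For Glycam1 the differences were -3.64 in DC (-9.19 to 1.92), -4.28 in MC (-9.83 to 1.28) and -3.02 in DMC (-8.57 to 2.54). Because several Glycam1 libraries held 0 reads, these fitted values depend on the pseudocount of 1. Such intervals include no difference as well as changes of many fold, so the genotypes are not shown to be alike.

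The remaining genes had smaller fitted differences from WT. Ltb differed by -1.39 in DC, -1.07 in MC and -1.07 in DMC, and Ccr7 by -1.47, -1.21 and -1.11 in the same 3 groups. Cxcr5 differed by -0.87 in DC, -1.73 in MC and -0.46 in DMC, and Madcam1 by -0.62, -0.25 and -0.34. Over the 7 genes the median log2 difference was -1.39 in DC, -1.52 in MC and -1.07 in DMC, beside medians of -0.015, -0.017 and -0.018 over all genes tested. Values above 0 numbered 1 of 7 in DC, Cxcl13 at 0.17, and 0 of 7 in MC and DMC. These comparisons share the 4 WT libraries. The lowest and highest limma adjusted p of the 7 genes were 0.567 and 0.968 for DC, 0.447 and 0.948 for MC, and 0.596 and 0.996 for DMC.

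For Ltb, Cxcr5, Ccr7 and Madcam1 the direction of these differences rested on WT-2 and WT-3. The fit without WT-2 and WT-3 was chosen after the data were seen and kept DC-3, MC-3 and DMC-2, where these genes were also high. As WT-2 and WT-3 are the marked WT libraries, a rise of the differences was fixed in advance and says nothing of genotype. In that fit Ltb differed from WT by 0.17 in DC, 0.49 in MC and 0.49 in DMC. Cxcr5 then differed by 1.15, 0.29 and 1.56, Ccr7 by 0.20, 0.46 and 0.56, and Madcam1 by 1.21, 1.58 and 1.496 in the same 3 groups. Cxcl13 came to 1.01 in DMC and Cr2 to 0.049. All of these values lay above 0, whereas with all 16 libraries they lay below 0. Glycam1 stayed below 0 at -1.32 in DC, -1.96 in MC and -0.70 in DMC, as did Cr2 at -0.33 in DC and -0.75 in MC. None of the 7 genes passed the threshold in either fit.

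**Figure D3:**
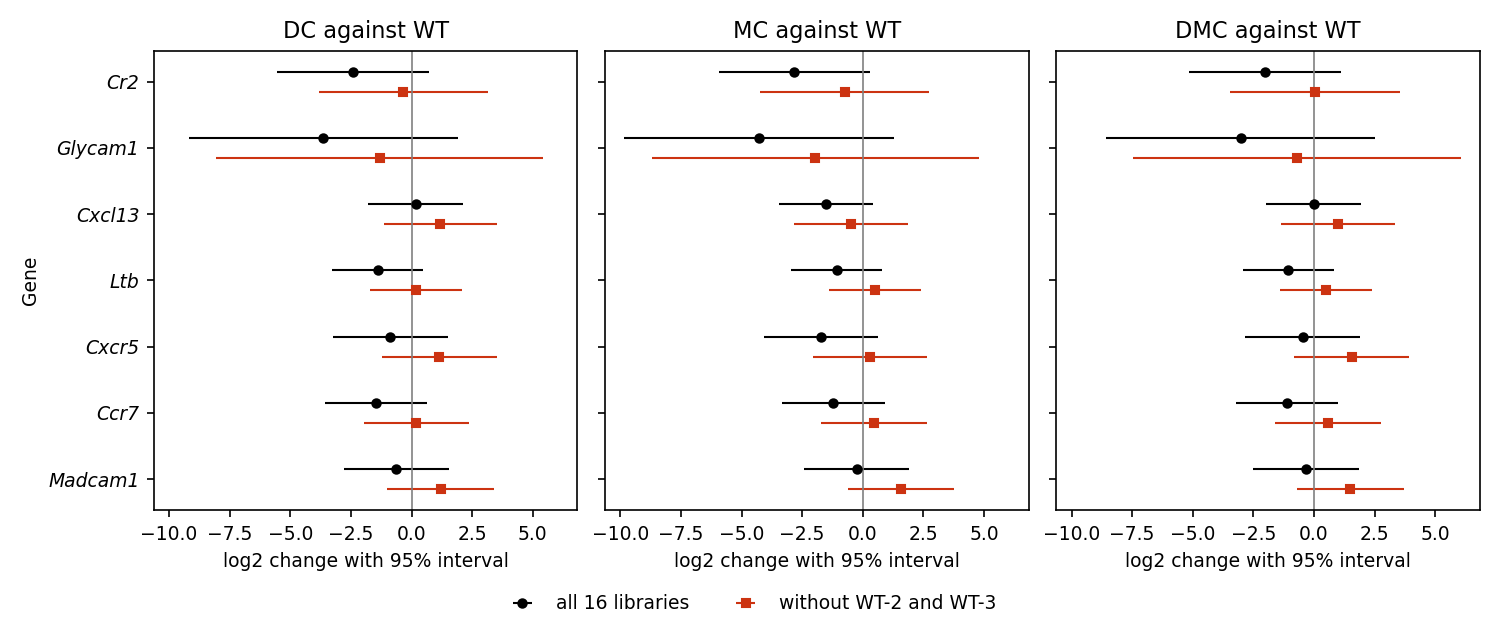
Fitted log2 difference of each gene in DC, MC and DMC against WT with its 95% interval, from limma with all 16 libraries (black circles) and without WT-2 and WT-3 (red squares). Every interval crosses 0 in both fits, and for Ltb, Cxcr5, Ccr7 and Madcam1 the 2 fits lie on opposite sides of 0 in all 3 panels.

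Among the Cre groups none of the 7 genes passed the threshold, and a common shift of the 7 was not tested. DMC against MC had a median log2 difference of 0.80 with 6 of 7 values above 0, DMC against DC 0.36 with 6 of 7, and MC against DC -0.42 with 3 of 7. Over all genes tested the first and second medians were 0.006 and 0.003, and the last was closer to 0. The interaction of both losses was past the threshold for 0 genes in limma, these 7 included.

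Cxcl13 in MC against DC was the 1 case of 42 (7 genes in 6 comparisons) in which the groups did not overlap. MC lay between 30.6 and 98.4 normalized counts and DC between 159 and 227. The log2 difference was -1.69 (95% interval -3.64 to 0.27), with a limma adjusted p of 0.446 in the fit over 16 libraries. In a fit of the 8 MC and DC libraries alone, whose spread for this gene is smaller, the limma adjusted p was 0.0431. The case was picked from the 42 for its lack of overlap, so these values describe it. Groups without overlap made up 8.94% of all genes in MC against DC. For the other comparisons 0 of the 7 genes were without overlap, beside 5.49% of all genes in DC against WT, 7.38% in MC against WT, 8.21% in DMC against WT, 4% in DMC against MC and 6.35% in DMC against DC.

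Like Cxcl13, adipocyte genes were lower in MC than in DC. Their mean log2 level over 10 genes ran from 5.36 to 6.86 in MC and from 6.89 to 8.02 in DC, and their summed normalized counts from 763 to 2707 in MC and from 2099 to 4619 in DC. None of the 10 was called in MC against DC, where their median log2 difference was -1.18. This list was not alone. B cell genes had a median of -0.68 there, with 2 of 21 above 0, and lymphatic endothelial genes -0.33, with 2 of 9. Acinar genes went the other way, at 0.27. Adipoq, which encodes the fat-cell hormone adiponectin, had 50.2 to 190 normalized counts in MC and 195 to 736 in DC. The library with the most Cxcl13, DMC-1, also had the highest adipocyte level of the 16, at 8.83. The part of adipose tissue in the Cxcl13 difference was not tested.

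In the 3 marked libraries the lymphocyte receptors and Ltb kept closer proportions than Glycam1 did. Between the lowest and the highest of DMC-2, WT-2 and WT-3 the ratio of Ccr7 to Cxcr5 differed 1.33-fold, Ltb to Cxcr5 1.41-fold, Cxcr5 to Cr2 1.67-fold and Ccr7 to Ltb 1.73-fold. Cxcl13 to Cr2 differed 3.35-fold, Glycam1 to Cr2 7.54-fold and Glycam1 to Madcam1 8.29-fold. The 3 libraries were marked for high values of these same genes, so this is a description. MC-3, which was not marked, lay outside their ranges. Its ratio of Ccr7 to Cxcr5 was 4.05, against 1.46 to 1.94, and that of Ltb to Cxcr5 4.34, against 1.36 to 1.91. Over all libraries with high Glycam1 the ratios ran as follows. Per Cr2 count, Glycam1 was 6.05 in MC-3, 2.20 in DMC-2, 2.06 in WT-3 and 4.16 in WT-4, but 0.697 in DC-3 and 0.291 in WT-2. Relative to Cr2, Glycam1 was therefore higher in MC-3 and WT-4 than in DC-3 and WT-2. All of them were high in Glycam1 against its own median. In DC-3 Glycam1 was 35.8 times and Cr2 10.8 times its median, and in WT-2 they were 22.0 and 15.9 times. Per Madcam1 count, Glycam1 was 14.5 in DC-3, 20.2 in MC-3, 23.1 in DMC-2, 39.0 in WT-3 and 49.9 in WT-4, but 4.71 in WT-2. These ratios are of normalized counts without correction for gene length, so they compare libraries and not genes.

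**Figure D4:**
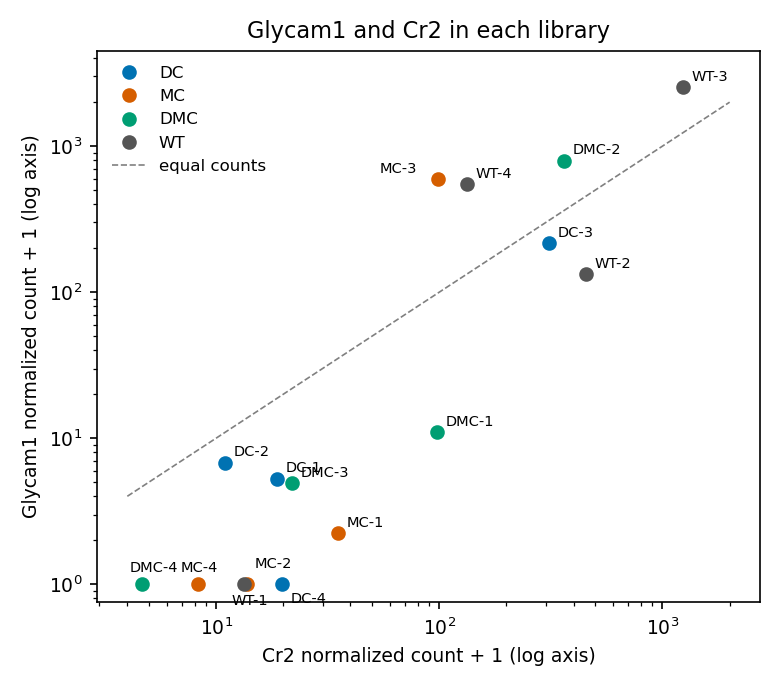
Glycam1 against Cr2 normalized count + 1 in each library on log axes, coloured by genotype, with a dashed line of equal counts that takes no account of gene length. The 6 libraries with Glycam1 above 130 lie apart from the other 10, and DMC-1 combines a Cr2 count of 96.5 with a Glycam1 count of 10.02.

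DMC-1 differed from the other libraries with raised values. It had 731 normalized counts of Cxcl13, the most of any library, with 96.5 of Cr2 and 73.8 of Cxcr5, yet 21.9 of Ccr7, 10.02 of Glycam1 and 4.55 of Madcam1. Its ratio of Ccr7 to Cxcr5 was 0.296, the lowest of the 16, against 1.30 in DC-3, 4.05 in MC-3, 1.79 in DMC-2, 1.46 in WT-2, 1.94 in WT-3 and 2.54 in WT-4. In that animal the B cell chemokine and its receptor were high while the T zone receptor and both addressins were not.

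Genes outside the list with the most similar profiles were taken for each member, by the root mean square difference of log2 values over the 16 libraries after centring each gene. Cr2 was nearest to Fcmr, the Fc receptor for IgM (0.80), and had Chst3 (0.91) close by, where a flat profile would differ by 2.32. Cxcr5 was nearest to Ms4a1, which encodes CD20 (0.43), Btla, an inhibitory lymphocyte receptor (0.47), and Chst3 (0.47), against 1.67 for a flat profile. For Cr2 the nearest gene within the list was Cxcr5, at 0.97.

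Ltb and Ccr7 shared Satb1, a chromatin organizer of T cells, among their nearest genes. Ltb had Rasal3 (0.30) and Satb1 (0.31), against 1.33 for a flat profile. Ccr7 had Lck, the kinase of the T cell receptor (0.38), Satb1 (0.40) and Fam78a (0.44), against 1.49, and each of the pair was the other's nearest gene within the list, at 0.50. Madcam1 was nearest to Siglech (0.44), the chemokine gene Ccl5 (0.49) and Cd3g, a chain of the T cell receptor complex (0.53), against 1.41. Glycam1 had no close match, with Apol7c at 2.30, Lef1 at 2.38 and Fcmr at 2.46 against 4.01.

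Cxcl13 had a different set of neighbours. Its nearest genes were Cidec, a lipid droplet protein of adipocytes (0.73), Cfd, the adipocyte protease adipsin (0.75), and Cacna1e (0.75), against 1.46 for a flat profile. All these distances share the 16 libraries and their depth, and they are descriptions without a test.

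Markers of B cells and T cells ran with most of the 7 genes from library to library. Cxcl13 departed from them, with 95.01 normalized counts in MC-3 and 731 in DMC-1, as did Glycam1 with 548 in WT-4. The mean log2 level of 21 B cell genes was 7.59 in DMC-2, 7.999 in WT-2 and 8.86 in WT-3, then 7.36 in DC-3, 7.01 in DMC-1 and 6.55 in MC-3, and 4.47 to 6.10 in the rest. For 22 T cell genes it was 6.86 in DMC-2, 7.44 in WT-2 and 8.09 in WT-3, with 6.54 in MC-3, 6.05 in DC-3 and 4.71 in DMC-1. DMC-1 was thus among the higher libraries for B cell genes and not for T cell genes, as for Cxcr5 and Ccr7.

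Germinal centre genes were, as a list, higher in the 3 marked libraries than in the rest. Their mean log2 level over 12 genes was 5.95 in DMC-2, 6.47 in WT-2 and 6.61 in WT-3, and at most 4.83 elsewhere, including DC-3 and MC-3. Some genes of the list did not separate the marked libraries. Other lists did so too. Follicular dendritic cell genes had 8.24 to 8.46 in the marked libraries and at most 7.84 elsewhere. Lymphotoxin and noncanonical NF-kB genes had 7.14 to 7.64 and at most 6.91. The B cell, T cell and other chemokine lists were also higher there. The marks come from lymphoid genes, so this is a description. Marco, a scavenger receptor of lymph node sinus and spleen macrophages and of lymphatic endothelium, had 419 in DMC-2, 546 in WT-2 and 732 in WT-3, against 179 in DMC-1, 186 in MC-3 and 202 in DC-3. The list of 9 lymphatic endothelial genes that holds Marco did not separate them. Its mean log2 level was 7.07 to 7.59 in the marked libraries and 5.52 to 8.23 in the others, highest in DC-1.

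Other sources were measured in the same way. Erythroid and red pulp genes had a mean log2 level of 5.46 to 6.49 in the 3 marked libraries and 3.89 to 6.34 in the other 13. Of the 6 thymocyte genes 3 were in the table, with a mean log2 level of 6.55 to 7.09 in the 3 marked libraries and 5.50 to 6.50 in the other 13. Dntt, the terminal transferase of immature lymphocytes, had 6.77 to 13.9 normalized counts in the marked libraries and at most 5.05 in the others. These counts are few, and Dntt did not pass the filter on low counts. Cd1d1, another of the 3, did not separate the marked libraries from the others. Rag1, Rag2 and Ptcra were not analysed here. For intestinal epithelium 3 of 11 genes were in the table. The part of any of these tissues in the levels of the 7 genes was not tested.

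**Figure D5:**
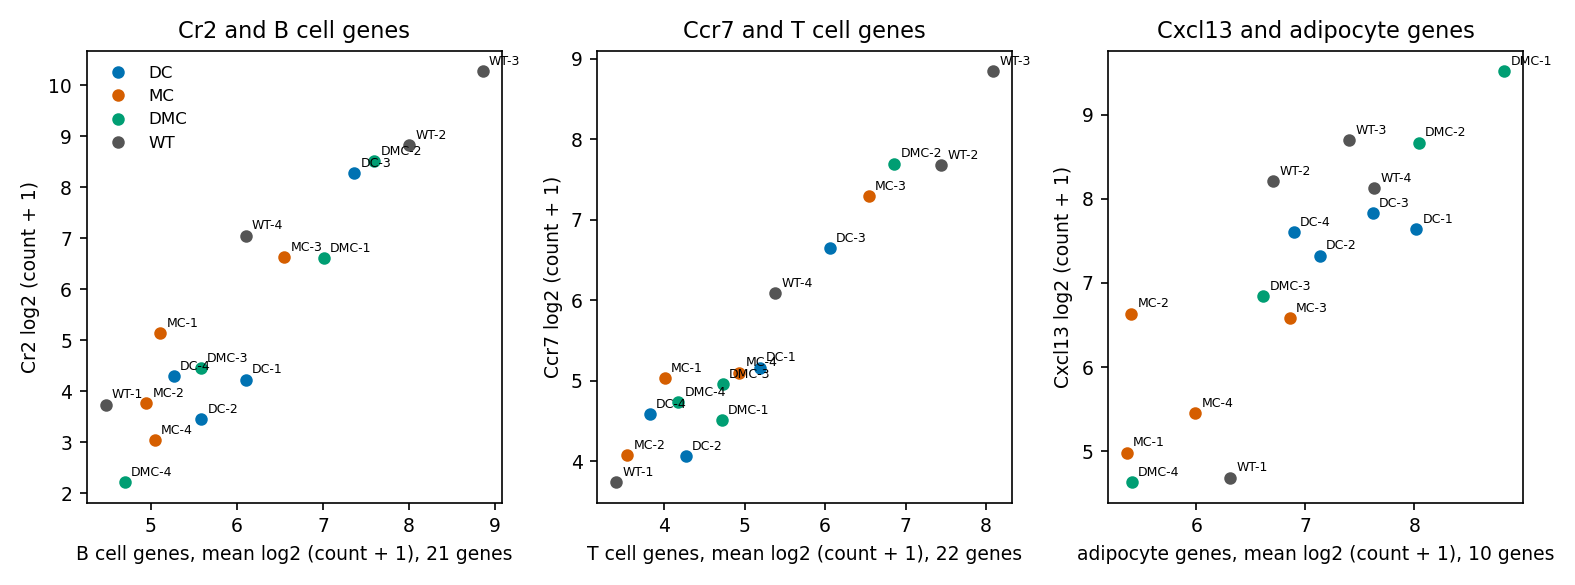
Log2 (normalized count + 1) of Cr2, Ccr7 and Cxcl13 in each library against the mean log2 level of 21 B cell genes, 22 T cell genes and 10 adipocyte genes, coloured by genotype. WT-3 is at the top right of the first and second panels, and DMC-1 is at the top right of the third while it lies low in the second.

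Genes of the wider pathway and of other cell types were read from the same fit, as 16 lists. Of 25 genes of the lymphotoxin and noncanonical NF-kB pathway 23 were tested, and in DC, MC and DMC against WT 0 rose and 0 fell by limma, with medians of -0.13, -0.02 and -0.19. Ltbr, the receptor for the LTB complex, ranged over 494 to 556 normalized counts in DC mice, 578 to 722 in MC mice and 507 to 682 in DMC mice, against 383 to 723 in WT mice. Relb, the factor it activates, was highest in 3 libraries, with 179 in DMC-2, 224 in WT-2 and 292 in WT-3. DC-1 followed with 165 and MC-4 with 163. Relb was chosen after its values were seen, and several other genes of the list did not separate these libraries. Ltbr did not follow Relb, with 507 in DMC-2, 537 in WT-2 and 383 in WT-3, where it was the lowest of all libraries. Other homeostatic chemokines and guidance receptors had medians of -0.18, -0.31 and -0.15 over 14 tested genes, with 0 past the threshold.

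In the stromal and vascular lists 1 gene passed in the comparisons of DC, MC and DMC with WT. Follicular dendritic cell genes had median log2 differences of 0.01, -0.35 and 0.27 over 11 tested genes, with 0 past the threshold. Fibroblastic reticular cell genes had 0.14, -0.03 and 0.41 over 14, and lymphatic endothelial genes 0.76, 0.38 and 0.37 over 9, both with 0 past the threshold. For high endothelial venule genes the medians were 0.04, 0.19 and 0.22 over 14 genes. Podxl, an L-selectin ligand that many other vessels and cells also carry, was the 1 gene that rose, with 367 to 547 normalized counts in DMC against 299 to 360 in WT (log2 0.62, limma adjusted p = 0.0346). The Podxl call held in 8 of 16 fits that left out 1 library, and its adjusted p ran to 0.141 over the alternatives. Its order over libraries was not that of Glycam1, since all 4 WT libraries lay below every DMC library.

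In each of these 3 comparisons the lowest median of the 16 lists was that of B cell or T cell genes. B cell genes differed from WT by -0.95 in DC, -1.63 in MC and -0.80 in DMC over 21 genes, and T cell genes by -1.14, -1.34 and -0.97 over 22. Germinal centre genes came to -1.05, -0.60 and -0.58 over 11, and plasma cell genes to -0.18, -0.33 and 0.03 over 8. In each of these lists 0 genes rose and 0 fell. These medians rested on the WT libraries, as the values of the 7 genes did. WT-2 and WT-3 had the highest B cell, T cell and germinal centre levels, so a rise without them was fixed in advance. Without WT-2 and WT-3 the B cell medians came to 0.65 in DC, 0.0087 in MC and 0.87 in DMC, those of T cell genes to 0.54, 0.37 and 0.74, and those of germinal centre genes to 0.02, 0.097 and 0.54. With WT-3 alone left out the B cell medians were -0.26, -0.75 and 0.037, and without WT-1 they were -1.86, -2.34 and -1.64. The T cell medians were -0.49, -0.68 and -0.35 without WT-3 and -2.18, -2.11 and -1.84 without WT-1. Dendritic cell and macrophage genes had medians of 0.17, 0.12 and 0.18 over 13 genes, among which Zbtb46, a transcription factor of classical dendritic cells and endothelium, fell in MC with 218 to 298 normalized counts against 339 to 443 in WT (log2 -0.64, limma adjusted p = 0.0309). That call held in 10 of 16 fits that left out 1 library, and its adjusted p ran to 0.113 over the alternatives.

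In the lists of other tissues 0 genes passed in the comparisons of DC, MC and DMC with WT. Acinar genes had medians of -0.61, -0.30 and -0.43 over 12 genes and adipocyte genes 0.24, -1.08 and 0.26 over 10. Erythroid and red pulp genes had -0.43, -0.47 and -0.13 over 7, and intestinal epithelial genes -0.27, 0.87 and 1.53 over 3. The thymocyte list had 2 tested genes, with medians of 0.07, -0.33 and -0.07. The adipocyte list was thus lowest in MC, as Cxcl13 and the B cell and T cell lists were.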

How the data were processed

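Total RNA from whole pancreas was purified with TRIzol and RNeasy and made into strand-specific TruSeq libraries, per the labels. Reads were aligned with STAR 2.6.0b to GRCm38 and DESeq2 was used, per the submitters' processing notes; no source used here gives the counter, annotation or filter. The authors deposited normalized count signal, gene counts divided by a size factor (0.566 to 1.63) per library, for 15156 genes. Reads were recovered from the step between values (100% whole within 0.01).

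Groups came from the genotype labels. The 14220 genes that reached 10 normalized counts in 4 or more libraries were fitted as log2(count + 1) with limma 3.58.1 (trend) in R 4.3.3, all 16 libraries together, with Benjamini-Hochberg adjustment over all genes tested in each comparison and a threshold of 0.05. Values named are all 7 members, up to 3 genes of a list and the 3 nearest profiles of each member, apart from some genes not reported here; Ltbr, Relb, Marco, Adipoq and Dntt were chosen after their values were seen. edgeR 4.0.16 and DESeq2 1.42.0 on recovered reads, another pseudocount, filter, scaling, weights, a replicate block, fits of the 2 groups compared and leaving out each library were alternatives. The scripts were tested on simulated data. Gene coordinates are from GENCODE on GRCm38 and start regions from RefSeq. The labels call the animals independent biological replicates. The members and lists were chosen with earlier results of these data known.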

Additional observations from a re-analysis of the deposited data

Results flagged for a closer look

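The genes were chosen because some libraries stood out, so the following is a description and supports nothing. A library far from the other 3 of its genotype, past the 95% critical value of Dixon's rule for its gap, was found for 9 of the 28 combinations of gene and genotype. The rule's nominal rate is about 1 in 20, and over all genes tested it marked 5.83% of combinations. In DC the library was DC-3, with 309 normalized counts of Cr2, 215 of Glycam1 and 76.3 of Cxcr5. In MC it was MC-3, with 593 of Glycam1, 156 of Ccr7 and 29.3 of Madcam1. In DMC it was DMC-2, with 796 of Glycam1, 207 of Ccr7 and 34.5 of Madcam1. The genes share their libraries, so these 9 cases are 3 animals and not 9 independent ones. In WT none of the 7 genes met the criterion.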

How the results depend on the processing

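Of 550 recomputed differences of the 7 genes, 514 kept their sign and their side of the threshold, 35 changed sign and 1 came to pass. Cxcl13 in DC came to -0.43, -0.41 and -0.38 with quality weights, edgeR and DESeq2, and in DMC to 0.44, 0.31 and 0.33. Without WT-2 and WT-3, DC, MC and DMC against WT came to 0.17, 0.49 and 0.49 for Ltb, 1.15, 0.29 and 1.56 for Cxcr5, 0.20, 0.46 and 0.56 for Ccr7 and 1.21, 1.58 and 1.496 for Madcam1, with 1.01 for Cxcl13 and 0.049 for Cr2 in DMC. With 1 library left out, Cxcl13 ran from -0.74 to 0.59 in DC and from -0.93 to 0.91 in DMC, and Cxcr5 from -1.57 to 0.34 in DMC. Madcam1 then ran from -1.83 to 0.19 for DC, from -1.46 to 0.55 for MC and from -1.54 to 0.47 for DMC. Of 48 list medians against WT 13 moved by more than the spread, all without WT-2 and WT-3. The cause was not tested. In MC against DC 1 of the 7 genes passed with only the 2 groups, Cxcl13.

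List genes past the threshold against WT numbered 2 with the reported fit, 0 with only the 2 groups compared, 9 with quality weights, 11 with DESeq2, 1 without WT-2 and WT-3 and 0 to 4 with 1 library left out. A replicate block gave 0, and replicate numbers did not pair the animals (correlations -0.371 to 0.384). Marked libraries numbered 3 as reported, 5 at 2 times and 1 at 8 times the median, and 1 where 3 in 4 genes were asked for. All genes past the threshold in DC, MC and DMC against WT numbered 3, 111 and 112, and 283, 391 and 331 with DESeq2, 177, 265 and 245 with quality weights, 1, 67 and 16 with only the 2 groups, 3, 46 and 36 with the block, and 41, 86 and 43 without WT-2 and WT-3. Depth limits Madcam1, with 80 reads at most, and Glycam1, with 0 in 5 libraries.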
